A study of Mus musculus with 3 samples.

Results

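The 10 genes described here encode selenoproteins, proteins that carry the amino acid selenocysteine. They were taken by symbol: Selenop, Gpx1, Gpx4, Txnrd1, Selenow, Selenof, Selenok, Selenot, Selenos and Msrb1. All 10 symbols were found once in the annotation, with 45 transcripts, among 24 annotated mouse selenoprotein genes and 22015 nuclear protein-coding genes. The cells were macrophages grown from the bone marrow of C57BL/6J mice and stimulated with 100 ng/ml lipid A, the endotoxin part that Toll-like receptor 4 recognises, for 25 minutes. RNA of the cytosolic fraction was depleted of ribosomal RNA, and 1 µg was used for each of 3 libraries, labelled biological replicates 1 to 3. They form a single group, with no unstimulated cells, other time or other fraction, so no effect of lipid A can be read from them. The labels tie all 3 libraries to 1 donor record, state neither sex nor age, and do not say whether the cultures came from separate animals, so the spread given below may be partly technical.

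Selenocysteine is inserted at UGA, a codon that elsewhere ends translation. A hairpin in the 3′ untranslated region, the SECIS element, recruits a binding protein, a dedicated elongation factor and a selenocysteine-charged tRNA to the ribosome. Selenium sits in the active site of most of these proteins, which reduce peroxides, disulfides or oxidised methionine. When selenium is short, an mRNA whose UGA lies ahead of an exon junction can be taken for one with a premature stop and degraded, and Gpx1 mRNA is known for being lost in this way while Gpx4 mRNA is largely kept.

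The UGA codons themselves are shown first, because they are what these genes share by definition and because the transcripts of a gene differ in whether they carry one. Each line gives the coding strand as DNA, 5′ to 3′, from the leading transcript of GENCODE M21, with the coordinates of the codon in mm10. Capitals mark the selenocysteine codon, and the lines of Selenok, Txnrd1 and Selenos stop at the end of the reading frame.
Selenop (chr15:3274848-3274850, plus strand): cttcaagccagcTGAtacttgtgtcttctg
Gpx1 (chr9:108339451-108339453, plus strand): gtcgcgtctctcTGAggcaccacgatccgg
Gpx4 (chr10:80054737-80054739, plus strand): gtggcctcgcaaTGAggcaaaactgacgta
Txnrd1 (chr10:82896037-82896039, plus strand): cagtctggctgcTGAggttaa
Msrb1 (chr17:24740158-24740160, plus strand): caatcaagattcTGAatatttagcagctca
Selenow (chr7:15920464-15920466, minus strand): tattgtggagctTGAggctataagcccaag
Selenof (chr3:144590645-144590647, plus strand): gaagtctgcggaTGAaaattggggaggttc
Selenok (chr14:29973440-29973442, plus strand): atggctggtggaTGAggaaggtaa
Selenot (chr3:58585238-58585240, plus strand): atttgtgtatccTGAgggtaccggcgggtg
Selenos (chr7:66088844-66088846, plus strand): tcatctggcggcTGAaactaa

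The position of the codon fell into 2 kinds. In Selenok, Txnrd1 and Selenos it lay at the very end of the reading frame, at codon 92 of 94, 498 of 499 and 189 of 190. In the other 7 genes at least 21 codons followed it, and in Selenow it came as early as codon 13 of 88. A cysteine codon stood 3 codons before it in Selenow and Selenot, 2 before it in Selenof and directly before it in Txnrd1, the spacing from which redox pairs of cysteine and selenocysteine are made. Selenop had a cysteine codon at the same distance of 3, after its first selenocysteine codon. Gpx1 had its nearest cysteine codon 29 codons downstream, and Selenok had none in its reading frame.

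Among the 10 genes, Selenop alone held more than 1 such codon. Of the other 14 selenoprotein genes, Dio2 had 2, at codons 130 and 263 of 266. The Selenop reading frame of 380 codons had 10, the first at codon 59 and the other 9 in the last exon. The 9th and 10th, at codons 375 and 377, lay 6 bases apart at the 3′ end of the frame, and are shown here with both codons in capitals because translation must pass all the earlier ones to reach them.
Selenop, codons 375 and 377 (chr15:3279690-3279698, plus strand): cagaccaggaagTGAaaaTGAcattcaaac

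Relative to the exon junctions, the first selenocysteine codon preceded the last junction in 8 of the 10 leading transcripts, and by more than 55 bases, the distance usually named for recognition of a premature stop, in 7 of 10. The distance was 470 bases in Selenot, 357 in Selenop, 342 in Gpx4, 243 in Selenow, 105 in Gpx1, 78 in Selenof, 66 in Msrb1 and 5 in Selenok. In Txnrd1 and Selenos the codon was in the last exon. Of the other 14 selenoprotein genes, 8 had the codon over 55 bases before the last junction. Levels, given below, did not follow this order throughout. Selenot, with the longest distance, was seventh by level, while Selenok, Txnrd1 and Selenos were the lowest. These are descriptions of 10 transcripts, and a relation of distance and level was not tested.

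**Figure D1:**
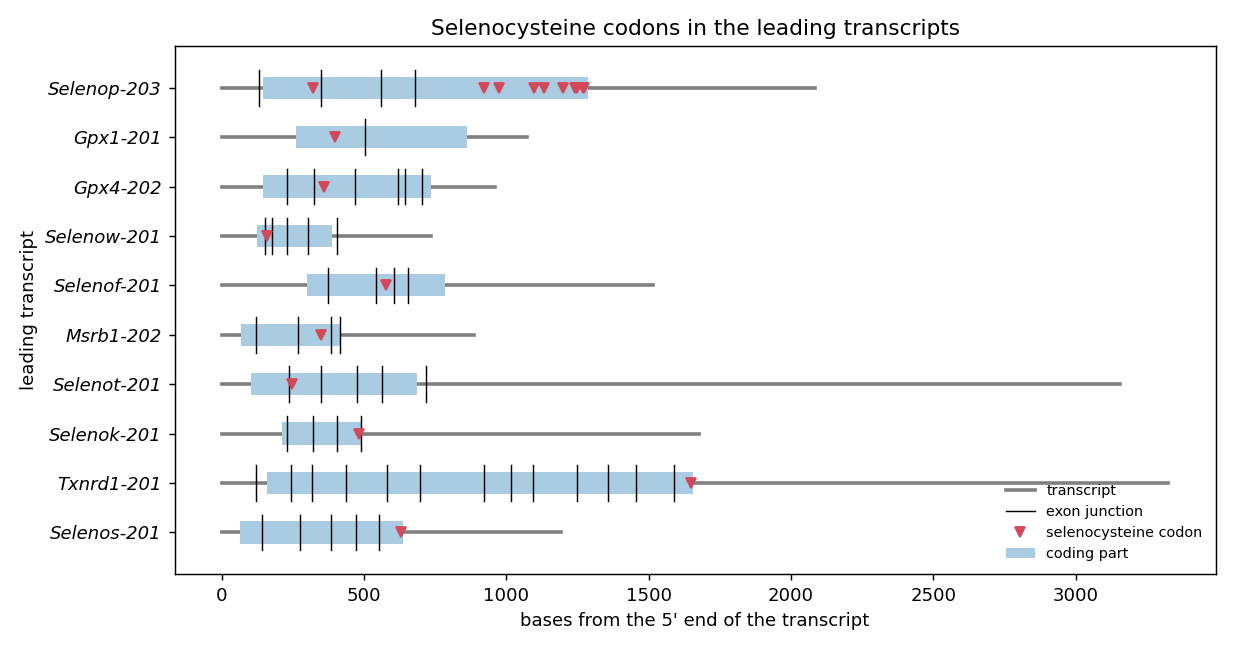
Leading transcript of each of the 10 genes, drawn to scale in bases from its 5′ end, with the coding part as a box, exon junctions as vertical lines and selenocysteine codons as triangles. Selenop-203 shows 10 triangles, 9 of them after its last junction, and in Selenok-201, Txnrd1-201 and Selenos-201 the triangle sits at the right end of the box.

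Library totals were 53055764, 43620362 and 38623777 expected counts in replicates 1, 2 and 3, of which 0.0395 to 0.186% did not lie on genes. Levels are given as TPM, a count divided by transcript length and scaled to a fixed sum, and can therefore be compared between genes. Nuclear protein-coding genes held 22.7, 22.9 and 29.8% of the TPM of the 3 libraries, so a gene with a constant place among them has a higher TPM in replicate 3. Differences between libraries are therefore read from CPM, the count scaled to library size with TMM factors, which is not corrected for length. The label macrophage matched the markers: 8 of 8 macrophage markers were detected, with a summed level of 5350 to 8444 TPM, while the 5 hepatocyte markers, Alb among them, had 0 counts in all 3 libraries. None of the 7 markers of T cells, B cells, progenitors, neutrophils, erythroid, stromal and endothelial cells reached 1 TPM (Kit was highest at a mean of 0.577 TPM), and Hbb-bs had 0 counts. Replicate 2 stood apart in 2 long RNAs that are normally kept in the nucleus, with Malat1 at 2685, 9481 and 1948 scaled CPM and Neat1 at 305, 909.9 and 300.4 scaled CPM in replicates 1, 2 and 3.

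All 10 genes were detected, with at least 1 TPM in each library, as were 41.3% of nuclear protein-coding genes. Their median level was 73.4 ± 13.4 TPM (SD, n = 3), against 7.78 ± 1.27 TPM for the 9084 detected nuclear protein-coding genes. Together they held 1.39 ± 0.102% of nuclear protein-coding TPM, and all 24 selenoprotein genes held 1.45 ± 0.108%. Selenop made up 73.7 ± 4.18% of the sum of the 10. These are levels of the whole culture, in which fewer cells with an RNA and less of it per cell cannot be told apart. The lowest count behind any of the levels was 1449, for Selenos in replicate 3.

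Selenop, the secreted selenium carrier of plasma that is made mainly by the liver, had 2411, 2029 and 3388 TPM in replicates 1, 2 and 3 (2609 ± 701, SD, n = 3). It ranked 7 among the 22015 nuclear protein-coding genes by mean TPM and was highest in replicate 3. Rescaled so that nuclear protein-coding genes alone share the sum, the TPM values were 10638, 8873 and 11384, a narrower range, with replicate 2 lowest on both scales. The counts behind them were 459067, 302128 and 370089. The liver markers named above were at 0 counts in the same libraries. Of the receptors known to take up selenoprotein P, Lrp1, a broad scavenger receptor of macrophages, had 150, 257 and 151 TPM, Lrp8, the main receptor of brain and testis, 0.44, 0.56 and 0.71 TPM, and Lrp2, the kidney receptor, 0 counts.

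Gpx1, the abundant cytosolic glutathione peroxidase that removes hydrogen peroxide, had 389.5, 472 and 406 TPM (423 ± 43.6, SD, n = 3). It was the only member besides Txnrd1 that was highest in replicate 2 in scaled CPM. Gpx4, which reduces lipid hydroperoxides in membranes and holds back ferroptosis, had 129.9, 117 and 136 TPM (128 ± 9.28). In scaled CPM Gpx4 had 177, 158 and 150 in replicates 1, 2 and 3, so replicate 3 was highest in TPM and lowest in CPM. Gpx1 was higher than Gpx4 in 3 of 3 libraries, by a mean of 3.31-fold (log2 ratio 1.73 ± 0.24). Selenop in turn exceeded Gpx1 in 3 of 3 libraries, by 6.05-fold (log2 ratio 2.60 ± 0.48).

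Part of the reads of Gpx4 may belong to a near-identical copy. Gpx4-ps2, a processed pseudogene on chromosome 10 (45875291 to 45876086), received 802, 702 and 795 expected counts, which were 8.04, 9.32 and 11.8% of the sum of both. In the tables made without alignment the copy received 8.94, 3.43 and 3.88 counts, which were 0.0848, 0.0431 and 0.0537% of the sum. With both added together the mean level of Gpx4 was 145 TPM, so the choice moves Gpx4 by less than the gap to Gpx1.

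Among the other redox enzymes, Selenow, a small protein with a thioredoxin-like fold, had 93.8, 77.0 and 105 TPM (91.8 ± 13.9, SD, n = 3). Msrb1, which reduces methionine-R-sulfoxide and restores oxidised actin, had 63.1, 57.5 and 73.1 TPM (64.6 ± 7.94). Txnrd1, the cytosolic thioredoxin reductase, had 18.1, 23.6 and 25.1 TPM (22.25 ± 3.68). The ranges of the 3 enzymes did not overlap, with Selenow highest and Txnrd1 lowest.

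The remaining 4 proteins reside in the endoplasmic reticulum (ER). Selenof, a lumenal protein that binds the glycoprotein-folding sensor UGGT, had 78.9, 65.4 and 103 TPM (82.3 ± 18.8, SD, n = 3). Selenot, a membrane-bound oxidoreductase, had 36.7, 32.6 and 48.8 TPM (39.4 ± 8.43). Selenok, a partner of the palmitoyl transferase ZDHHC6, had 28.9, 23.5 and 41.8 TPM (31.4 ± 9.40). All of these were lowest in replicate 2 and highest in replicate 3 in TPM. Replicate 2 was also lowest in scaled CPM and in alignment-free TPM, but the highest library changed. In scaled CPM Selenot had 214.2, 178.0 and 213.9 in replicates 1, 2 and 3. In alignment-free TPM replicate 1 was highest for Selenof, Selenot and Selenok. Selenos, which ties the degradation channel of the ER to the ATPase p97, had 20.9, 20.9 and 24.9 TPM (22.22 ± 2.36), the narrowest relative range of the 4.

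The order by mean TPM was Selenop, Gpx1, Gpx4, Selenow, Selenof, Msrb1, Selenot, Selenok, Txnrd1 and Selenos. Neighbours in this order were compared in the same 3 libraries, so the direction of each pair was set by the values tested. For 7 of the 9 neighbouring pairs the higher gene was higher in 3 of 3 libraries, which is the most that 3 libraries can show: the two-sided exact sign-flip permutation p was 0.25, the smallest possible, for each. Selenow and Selenof were the closest of these, with log2 ratios of 0.25, 0.23 and 0.03 in the 3 libraries. Selenok was above Txnrd1 in 2 of 3 libraries (exact p = 0.5) and Txnrd1 above Selenos in 2 of 3 (exact p = 1, mean log2 ratio -0.01 ± 0.19). Txnrd1 was thus not set apart from either neighbour, while Selenok was above Selenos in 3 of 3 libraries. In the alignment-free tables Selenok exceeded Selenot in 3 of 3 libraries, which turns that pair round.

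**Figure D2:**
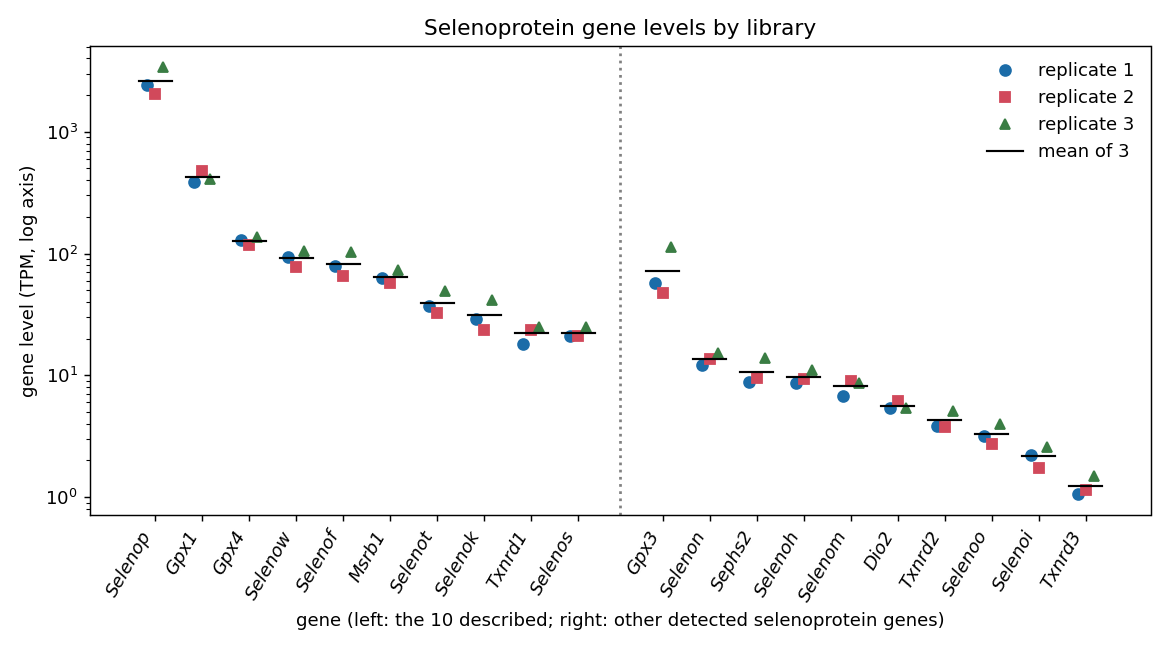
TPM of the 10 genes (left of the dotted line) and of the 10 other selenoprotein genes detected (right) on a log axis, with 1 symbol per library and a bar for the mean of 3. Selenop lies at 2029 to 3388 TPM, above all the others, and Gpx3 is the only gene on the right that reaches the range of the middle members.

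In scaled CPM the highest library exceeded the lowest by 1.09-fold in Selenos to 1.37-fold in Gpx1, and none of the 10 passed 1.5-fold. That limit was passed by 18.7% of the 12744 genes tested. These include genes with far fewer counts than the members, and no share is given for genes of similar depth. Whether the members passed the limit less often than such genes was not tested. The SD of log2 CPM had a median of 0.157 over the 10, against 0.127 over all genes tested and 0.0896 over the 5647 of them with a mean count of at least 1000, a depth that all 10 members had. Gpx1 (0.229) and Selenop (0.222) varied most and Selenos (0.0665) least. Without replicate 2 the median SD of the members was 0.0759, and without replicate 1 or 3 it was 0.168 or 0.173. Each of these SDs rests on 2 libraries, and no such medians are given for other genes. Whether the drop without replicate 2 is particular to the members was not tested. The ranking rested on replicate 2 as well: without it Gpx4 varied most (0.165), followed by Gpx1 (0.153), Selenop had 0.0593 and Selenos 0.0925, and Selenot varied least (0.0024).

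The direction was shared by several members. In replicate 2, 6 of 10 had their lowest scaled CPM (Selenop, Selenow, Selenof, Msrb1, Selenot and Selenok), as did 39.7% of all genes tested, and the median departure of the 10 from their own means was -0.14 on the log2 scale there. Selenop, for example, had 8824, 6997 and 9360 scaled CPM in replicates 1, 2 and 3, and Selenok 77.3, 62.2 and 77.9. Gpx1 went the other way, with 529, 626 and 456 scaled CPM, as did Txnrd1, with 102, 120 and 104. Replicate 2 was also the library with the high Malat1 and Neat1 values given above, and the part of that difference in these departures was not tested.

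**Figure D3:**
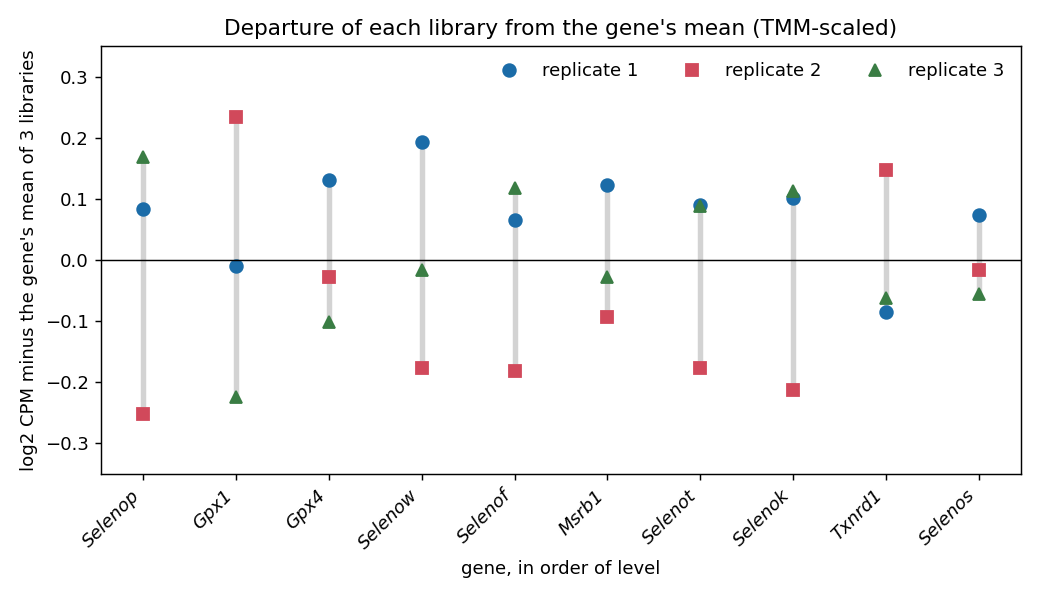
Departure of each library from the gene's mean over 3 libraries, in log2 CPM after TMM scaling, for the 10 genes in order of level, with the grey bar spanning the 3 libraries. The squares of replicate 2 lie lowest for 6 genes and highest for Gpx1 and Txnrd1.

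Transcript shares, the percent of a gene's TPM assigned to each annotated transcript, are estimates that depend on how reads common to several transcripts are divided, so both deposited quantifications are given. Selenow had 1 annotated transcript. In the other 9 genes the same transcript led in 3 of 3 libraries, as it did in 91% of detected protein-coding genes with several transcripts. The same transcript also led in both quantifications in 8 of these 9, against 90.3% of those genes, and Selenok was the exception. The leading transcript held a median of 87.4% over the 10 genes and 87.0% over the 9, compared with 79.3% over the 8436 detected genes with several transcripts.

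Selenot-201, Selenos-201 and Msrb1-202 held 99.9 ± 0.112, 95.6 ± 0.746 and 87.7 ± 1.42% of their genes' TPM (SD, n = 3). Msrb1-201, with 12.3 ± 1.42%, encodes a protein of the same 116 codons. Selenos-205, whose annotated frame of 187 codons ends just before the selenocysteine codon, had 2.16, 3.26 and 5.21%. For these 3 genes the alignment-free shares of the leading transcript, 99.7, 94.5 and 86.5%, were close by.

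Selenop-203 held 75.1, 89.8 and 78.7% and Selenop-201 24.4, 9.67 and 20.9% of Selenop TPM. Both share the frame of 380 codons and differ in their first exon, upstream of the start codon. Without alignment Selenop-201 had 4.47, 2.51 and 7.0%, lower in each library, and replicate 2 was lowest in both quantifications. Transcripts annotated with selenocysteine made up 99.98% of Selenop, so its 5′ end differed between quantifications while its coding part did not.

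For Gpx1, 58.6, 64.6 and 71.5% was assigned to Gpx1-201, the transcript with the selenocysteine codon at codon 47 of 201. Most of the rest, 39.8, 33.4 and 27.5%, went to Gpx1-204 (chr9:108339276-108340250, plus strand), a spliced form of 653 bases whose exons contain the TGA shown above but whose annotated frame of 145 codons starts 28 bases after it. Its alignment-free share was 32.1, 21.9 and 20.3%, with replicate 1 highest again. Gpx1 thus had the lowest share annotated with selenocysteine among the 10 genes in the alignment-based tables, 64.9 ± 6.47%, and 73.6 ± 6.30% in the other tables.

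Gpx4-202, with a frame of 197 codons, had 77.2, 90.1 and 96.2% of Gpx4 TPM, and Gpx4-207, which starts in a shorter first exon and has 157 codons, had 20.7, 9.14 and 2.31%. The long frame of 253 codons, on Gpx4-201, averaged 0.392%. As background, the gene gives mitochondrial, cytosolic and nuclear proteins, the last chiefly in sperm. All 3 transcripts carry the annotated selenocysteine codon, and these sum to 99.0% of the TPM of Gpx4. Alignment-free values for Gpx4-207 were smaller, at 7.76, 2.69 and 1.38%, and had the same order of libraries.

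Txnrd1 was the most divided gene. Txnrd1-201 had 59.5, 57.4 and 58.5%, Txnrd1-208 17.1, 14.7 and 23.2%, and Txnrd1-206 16.9, 12.9 and 10.7%. All 3 have the same frame length of 499 codons and differ outside it: Txnrd1-206 starts at chr10:82860301 in place of chr10:82859179, and Txnrd1-208 ends at chr10:82896605 in place of chr10:82897712. Without alignment the 3 were closer to each other, with means of 35.2, 24.9 and 20.4%. Transcripts annotated as retained introns held 5.48, 13.0 and 6.39% of Txnrd1 TPM and 8.95, 19.4 and 7.29% without alignment, highest in replicate 2 in both. The largest part with alignment was Txnrd1-202, a short transcript of 483 bases with 19.3, 39.6 and 14.2 expected counts. It averaged 4.99% of Txnrd1 TPM but 0.490% of the expected counts of the gene. Replicate 2 is the library with the high Malat1 and Neat1, and the part of that in the intron share was not tested. Eid3, a gene on the same strand inside Txnrd1, had 56, 182 and 56 counts, and Gm38560, on the opposite strand, 12, 12 and 9, against 4111 to 5327 for Txnrd1.

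Selenof-201 had 52.6, 72.5 and 63.9%, and Selenof-202, which lacks 1 coding exon downstream of the codon and ends after 121 codons in place of 162, had 34.6, 20.9 and 28.8%. Both carry the selenocysteine codon. Selenof-202 differed between the quantifications, with 9.03, 0 and 5.18% without alignment. Selenof-203, a processed transcript with no frame, had 12.5, 6.08 and 7.20% and similar values without alignment (12.9, 6.64 and 10.95%).

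Selenok was the gene on which the quantifications differed most. The coding transcript Selenok-201 had 88.2, 96.6 and 76.3% with alignment and 29.4, 35.2 and 30.7% without. Selenok-203, annotated as a target of nonsense-mediated decay because an added exon ends its frame after 40 codons, had 9.33, 0 and 19.3% with alignment and 49.8, 45.8 and 48.6% without. Selenok-202, a processed transcript, had 3.46% and 20.2% on average. The gene level moved as well: relative to the median gene, the alignment-free level of Selenok was 1.58-fold the alignment-based one. It was the only 1 of 10 members beyond 1.5-fold, against 1.74% of detected protein-coding genes, and the other 9 lay between 0.890 and 1.10-fold. Which tables are nearer to the true shares cannot be told from them.

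**Figure D4:**
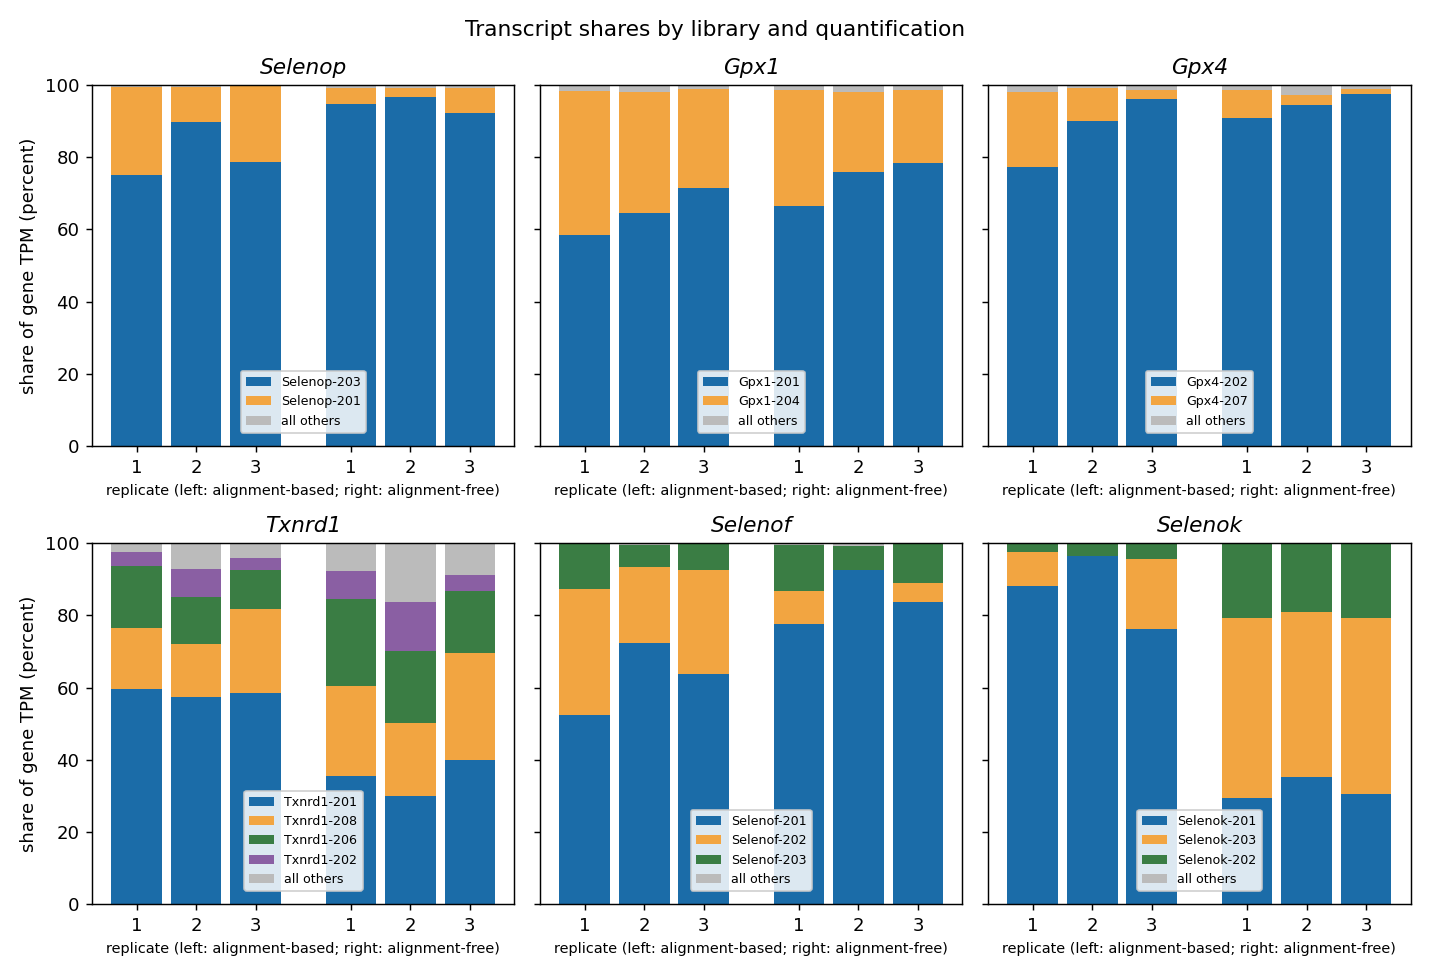
Percent of gene TPM on each transcript for 6 genes with divided transcripts, as stacked bars for replicates 1 to 3, alignment-based at left and alignment-free at right of each panel; transcripts under 5% on average in both are pooled in grey. Selenok-201 drops below 36% in the right-hand bars of its panel. In the other 5 genes the same transcript leads on both sides, but its share differs, as for Txnrd1-201 (means of 58.5 and 35.2%).

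The other 14 selenoprotein genes were mostly lower than the 10 members. Of these 14, 10 were detected, against 41.3% of nuclear protein-coding genes. Their median over all 14 was 3.77 ± 0.694 TPM (SD, n = 3), against 0.16 ± 0.0265 TPM over all nuclear protein-coding genes. Gpx3, the secreted plasma peroxidase, was the highest, with 57.2, 47.7 and 112 TPM, and varied more than any of the 10 members, with 156, 122 and 232 scaled CPM and a highest library 1.90-fold above the lowest. Next came Selenon, an ER calcium sensor (13.7 ± 1.48 TPM), Sephs2, which makes the selenium donor (10.7 ± 2.69), Selenoh, a nucleolar protein (9.62 ± 1.25), Selenom of the ER lumen (8.14 ± 1.27) and Dio2, which activates thyroid hormone (5.63 ± 0.405). The mitochondrial reductase Txnrd2 (4.26 TPM), Selenoo, an AMP-transferring enzyme of mitochondria (3.29), the phospholipid enzyme Selenoi (2.17) and the testis-rich Txnrd3 (1.23) were lower still. Dio1 had 1, 0 and 0 counts, and Selenov, Gpx2 and Dio3 had 0 counts in all 3 libraries, where 3 counts would be 0.0566 to 0.0777 CPM.

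The genes that make and read selenocysteine were all present. Of 13 listed, 13 were detected, against 41.3% of nuclear protein-coding genes, with a median of 15.2 ± 2.76 TPM. Rpl30, a ribosomal protein that also binds SECIS elements, was highest (243 ± 87.0 TPM), followed by nucleolin, Ncl (44.3 ± 6.34), the helicase Eif4a3, which competes for some SECIS elements (28.2 ± 6.39), and Sars, which charges the tRNA with serine (22.9 ± 4.42); these 4 have wide functions outside selenium. The other listed genes, among them factors dedicated to selenocysteine, were lower. The SECIS-binding protein Secisbp2 had 3.23 ± 0.576 TPM, the elongation factor Eefsec 2.42 ± 0.632 and Sepsecs, which completes selenocysteine on its tRNA, 1.78 ± 0.302 (SD, n = 3). Pstk, the kinase that acts on the tRNA before Sepsecs, had 3.55 ± 0.50 TPM. The rest of the list were Secisbp2l (17.3 ± 3.83 TPM), Elavl1 (15.85 ± 3.02), Scly (15.3 ± 2.64), Trnau1ap (6.59 ± 1.26) and Sephs1 (3.10 ± 0.905).

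Most partners of the members were detected too, against 41.3% of nuclear protein-coding genes. In the thioredoxin and glutathione list 13 of 15 genes were detected, with a median of 14.6 ± 2.33 TPM, led by Prdx1, a peroxidase that thioredoxin recycles (229 ± 60.8), the haem-degrading Hmox1 (106 ± 13.6), the thioredoxin inhibitor Txnip (74.0 ± 12.4) and thioredoxin itself, Txn1 (49.1 ± 6.81). Slc7a11, the cystine importer (0.753 TPM), and Nqo1, a quinone reductase (0.330 TPM), stayed below 1 TPM in all 3 libraries. Txn1, the substrate of Txnrd1, was thus higher than Txnrd1 in 3 of 3 libraries, with 43.3, 47.5 and 56.6 TPM.

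Of 12 listed ER quality control genes, 10 were detected, with a median of 14.9 ± 2.03 TPM. The chaperones Hspa5 (205 ± 41.8 TPM) and Canx (133 ± 15.6), the p97 ATPase Vcp (62.7 ± 8.99) and Sel1l of the degradation channel (30.7 ± 4.6) led, and Uggt2 and Derl3 were below 1 TPM. Cysteine homologues and related enzymes, which do related chemistry without selenium, were mostly below 1 TPM. Of 7 listed, 2 were detected, against 41.3% of nuclear protein-coding genes, and 7 genes are too few to set the list apart from that share. The 2 were Msra (6.92 ± 0.279 TPM) and Msrb2 (2.95 ± 0.722), both methionine sulfoxide reductases. Msrb1 was higher than Msrb2 and Msra in 3 of 3 libraries. Msrb3, Gpx7 and Gpx8 had between 0 and 8 counts a library, and Gpx5 and Gpx6 had 0.

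**Figure D5:**
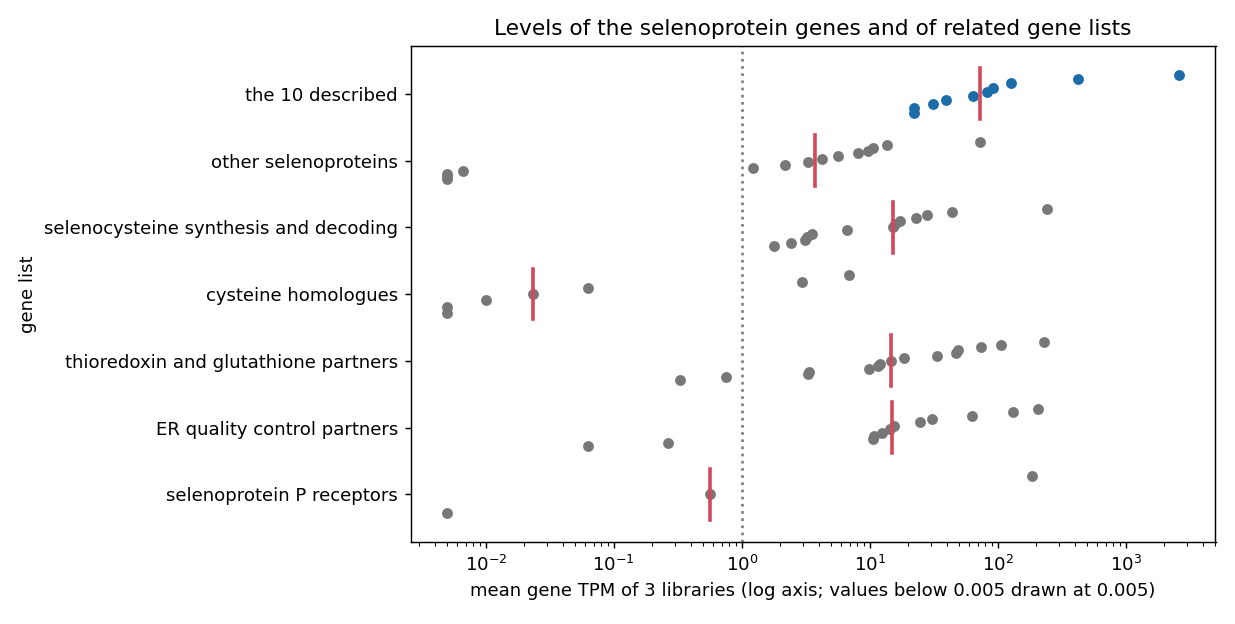
Mean TPM of each gene (points) and median (red bar) for the 10 genes and 6 lists of related genes, on a log axis, with a dotted line at 1 TPM. The 10 genes lie from 22.2 to 2609 TPM, and the median of the plotted means of each other list lies between 0.0233 and 15.3 TPM.

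For each member, the nuclear protein-coding gene with the nearest values over the 3 libraries, by distance in log2(TPM + 0.1), was looked up as a description of its level. Ctsb, a lysosomal protease, was nearest to Selenop (2763 TPM on average, distance 0.28), and Vim, an intermediate filament, to Gpx1 (424 TPM, distance 0.14). The others were Atp6v0b for Gpx4, Psmd8 for Selenow, Tma7 for Selenof, Renbp for Msrb1, Rilpl2 for Selenot, Ssr4 for Selenok, Wsb1 for Txnrd1 and Trp53inp2 for Selenos, at distances of 0.02 to 0.13. Such distances rest on 3 libraries and mostly on the mean level. The 3′ end of Selenop overlaps Ccdc152 on the opposite strand, which had 20.96, 11.4 and 62.6 counts, against 302128 to 459067 for Selenop, and without stated strandedness reads of both genes cannot be told apart there.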

How the data were processed

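Cytosolic RNA of 3 libraries of 1 group was analysed. Per the deposited text files, the authors used mm10 and GENCODE M21; in the sources used here, strandedness and tool versions are not given. Per the file headers, the authors deposited expected counts and TPM per gene and transcript in the columns RSEM writes (alignment-based, the main values), and, with kallisto's column names, estimated counts and TPM per transcript (alignment-free). Deposited TPM sums over all targets of a table. Expected counts were rounded for edgeR 4.0.16 (R 4.3.3): filterByExpr kept 12744 genes, TMM factors scaled them, and log2 CPM used a prior count of 2. Rows that are not genes (0.0395 to 0.186% of counts) were left out. No test between groups exists; neighbours in level were compared by a two-sided exact sign-flip permutation test. The steps were tested on simulated data. The floor of 3 counts covers only counting error, as the reads have no molecular identifiers. Codon positions and sequences were read from the GENCODE M21 annotation and transcripts. The members and gene lists were chosen with earlier results of these data known. Named were all 24 selenoprotein genes and, from other lists, the 4 highest and up to 3 genes below 1 TPM. Also named were the nearest gene per member, leading transcripts and those with at least 5% of a gene. Overlapping or copied genes were named where they had at least 10 counts. Malat1, Neat1, Secisbp2, Eefsec, Sepsecs, Pstk, Secisbp2l, Elavl1, Scly, Trnau1ap, Sephs1 and transcripts under 5% were named after their values were seen. Python 3.11.15, numpy 2.4.6, pandas 2.3.3 and matplotlib 3.10.9 were used.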

Additional observations from a re-analysis of the deposited data

How the results depend on the processing

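The median level of the 10 genes was 73.4 TPM, 21.9 TPM in the alignment-free tables and 292 TPM when nuclear protein-coding genes alone share the sum, so levels hold only within a table, and it was 66.2 to 79.4 TPM with a library left out. The median SD of log2 CPM of 0.157 was 0.0759 to 0.173 with a library left out, lowest without replicate 2, and 0.157 to 0.188 under the other scalings, filters, prior counts and counts tried. Of 9 neighbouring pairs, 7 had the higher gene higher in every library; the count was 7 in the alignment-free tables, where Selenok lay above both Selenot and Txnrd1 in 3 of 3 libraries, and 7 to 8 with a library left out. No member passed 1.5-fold between libraries with TMM factors, DESeq2 1.42.0 size factors or library size alone. Shares of the leading transcript moved by more than 1 SD in 7 of 10 genes without alignment and in 3 of 10 when computed from expected counts; the cause was not tested. Adding Gpx4-ps2 to Gpx4, an alternative chosen after seeing the data, gave 145 TPM. No paired analysis was possible because there is a single group. Depth limits genes at 0 counts, not the members, which had at least 1449 counts.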
